A study of Mus musculus with 35 samples.

Results

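The genes described here are 10 members of the interleukin-1 system of hepatic macs, out of 54735 genes counted in each of 35 samples. They were chosen by symbol: the ligands *Il1a*, *Il1b* and *Il18*, the antagonists *Il1rn* and *Il18bp*, the receptor chains *Il1r1*, *Il1rap* and *Il1r2*, and *Nlrp3* and *Casp1* of the inflammasome. All 10 were present in the count files. Of these, 9 exceeded a CPM (counts scaled to library size) of 1 in at least 5 samples and were tested, and *Il1r2* did not.

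The macs came from livers of C57BL/6J mice with metabolic-associated fatty liver disease (MAFLD) or from controls, and were sorted on the surface proteins CLEC4F and TIM4 before bulk RNA sequencing. Resident Kupffer cells (ResKCs, CLEC4F+TIM4+) were taken from mice fed a standard diet (SD) for 12 weeks (n = 7) or 24 weeks (n = 6), and from mice given a Western diet (WD) rich in fat, cholesterol and sugars for 12 weeks (n = 5) or 24 weeks (n = 6). Monocyte-derived KCs (moKCs, CLEC4F+TIM4-, n = 5) and CLEC4F- macs (CLEC4F-TIM4-, n = 6) were sorted after 24 weeks of WD, and no SD samples of either population were analysed here. The study's methods state that the mice given diets were male and began them at 5 weeks of age, and the labels name no transgene or deletion. The 5 samples described here as WD ResKCs at 12 weeks are named so by their titles and descriptions, whereas another label field gives the standard diet. The study's text counts each population's samples as mice, but the labels do not tie a sample to a mouse, so p-values measure the spread between these samples.

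Interleukin-1 is a pair of cytokines, IL-1α and IL-1β, that act through a receptor made of IL1R1 and its accessory chain IL1RAP, and drive NF-κB signalling in the responding cell. IL-1β and IL-18 are made as precursors that caspase-1 cleaves after it is activated in an inflammasome such as the one built on NLRP3, so mRNA levels of the ligands do not report the active cytokines. The system carries its own brakes: the receptor antagonist encoded by *Il1rn* occupies IL1R1 without signalling, the decoy receptor IL1R2 binds ligand without signalling, and IL-18 binding protein neutralises IL-18. Kupffer cells, the resident macs of the liver sinusoids, are known as a source of these cytokines in the liver.

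Totals lay between 11568590 and 15163845 counts per sample. At this depth, 3 counts corresponded to 0.198 to 0.259 CPM, which covers counting error only. CPM values are scaled by TMM factors, and errors written as ± are standard deviations between samples. The sorted populations carried the markers by which they were sorted at the group level: *Clec4f* ranged from 11174 to 17495 CPM in ResKCs, from 7326 to 11619 CPM in moKCs and from 294 to 5488 CPM in CLEC4F- macs, and *Timd4* from 547 to 1358 CPM in ResKCs and from 2.85 to 30.3 CPM in moKCs. In the CLEC4F- group, 2 libraries stood apart. Replicate 4 had a summed level of 6 ResKC markers of 12198 CPM, against 1295 to 5550 CPM in the other 5, and replicate 1 had the highest summed levels of 7 lymphoid markers (116 CPM) and 6 dendritic cell markers (172 CPM). Of 9 neutrophil markers, 6 did not pass the filter, *Ly6g* was at 0 counts in every sample and the summed level of all 9 was at most 13.3 CPM. Alignment names in the file headers took 2 forms, called here the first naming scheme (22 samples) and the second (13 samples), whose meaning the sources used here do not give. WD ResKCs at 12 weeks and SD ResKCs at 24 weeks have the first scheme throughout, and the other 4 groups hold both.

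The members lie on 6 chromosomes of mm10, in the GENCODE M21 annotation. *Il1rn* (chr2:24336853-24351494, plus strand), *Il1a* (chr2:129299610-129309972, minus strand) and *Il1b* (chr2:129364570-129371139, minus strand) share chromosome 2. *Il1r2* (chr1:40074079-40125231) and *Il1r1* (chr1:40225080-40317257) are both on the plus strand of chromosome 1. *Casp1* (chr9:5298517-5307265) and *Il18* (chr9:50554827-50581840) are on chromosome 9, *Il18bp* (chr7:102014885-102018690, minus strand) on chromosome 7, *Nlrp3* (chr11:59541568-59566956) on chromosome 11 and *Il1rap* (chr16:26581704-26730117) on chromosome 16. All 10 are protein-coding genes, and the values are reads assigned to each gene as a whole. Exons of 4 members overlap another annotated gene: 222 bases of *Il1a* with *Gm14023*, 25 bases of *Il1b* with *Il1bos*, 80 bases of *Il18bp* with *Numa1* and 552 bases of *Il1rap* with *Gm20319*, and the strand setting of the counting is not given in the sources used here.

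The 250 bases before the start of *Il1rn*, *Il1a* and *Il1b* are shown because these 3 genes encode the antagonist and its 2 competing ligands. Within the ResKC groups *Il1a* and *Il1b* varied together (Pearson r = 0.889), whereas *Il1rn* did not vary with *Il1b* (r = -0.082). The sequences are those of RefSeq for GRCm38.p6, written 5′ to 3′ on the strand of the gene, in lower case with matches to 3 motifs in capitals. The motifs, searched on both strands, were TGANTCA (AP-1, bound by Fos and Jun proteins), GGGA followed after any 4 bases by CC (NF-κB) and GAGGAA (PU.1, a myeloid lineage factor), and no matches overlapped in these 3 windows.
Il1rn, chr2:24336610-24336859, plus strand: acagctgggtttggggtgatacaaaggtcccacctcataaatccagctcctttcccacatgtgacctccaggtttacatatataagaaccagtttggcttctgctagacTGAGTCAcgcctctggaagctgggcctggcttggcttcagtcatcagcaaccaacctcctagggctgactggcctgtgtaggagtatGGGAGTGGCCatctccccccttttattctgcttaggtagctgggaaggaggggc
Il1a, chr2:129309973-129310222, minus strand: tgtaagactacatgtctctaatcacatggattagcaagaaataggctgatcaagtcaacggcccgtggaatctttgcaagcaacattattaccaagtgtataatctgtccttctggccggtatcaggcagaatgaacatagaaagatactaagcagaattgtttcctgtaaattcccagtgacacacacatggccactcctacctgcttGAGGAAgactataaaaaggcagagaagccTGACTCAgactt
Il1b, chr2:129371140-129371389, minus strand: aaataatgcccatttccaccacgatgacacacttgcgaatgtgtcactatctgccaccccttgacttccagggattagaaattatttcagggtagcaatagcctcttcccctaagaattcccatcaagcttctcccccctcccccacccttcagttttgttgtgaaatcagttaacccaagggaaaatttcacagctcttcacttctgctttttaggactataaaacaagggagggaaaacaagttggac
The *Il1rn* window held an AP-1 match that begins at base 110 and an NF-κB match at base 197. That of *Il1a* held a PU.1 match at base 210 and an AP-1 match at base 239, and that of *Il1b* held none of the 3. Of 32851 windows of this length before annotated mouse starts, 6.75% held the AP-1 letters, 17.6% the NF-κB letters and 23.3% the PU.1 letters. These matches describe letters and not bound sites, and *Il1rn* has further annotated starts whose windows held no match.

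To compare levels between genes, group means were divided by the summed exon length of each gene. In SD ResKCs at 24 weeks, *Il1b* had the highest level of the 10 at 417 CPM per kb, followed by *Il18bp* at 379.6 CPM per kb. *Il1a* had 103.0, *Casp1* 99.8 and *Il18* 71.3 CPM per kb. *Il1rn* had 12.7 and *Nlrp3* 12.1 CPM per kb, and the receptor chains *Il1rap*, *Il1r1* and *Il1r2* had 1.06, 0.295 and 0.115 CPM per kb. Thus the binding protein of IL-18 was above its ligand per length, whereas the receptor antagonist was below both IL-1 ligands. In WD ResKCs at 24 weeks the order of the first 2 was exchanged, with *Il18bp* at 389 and *Il1b* at 110 CPM per kb, and *Il1rn* stood at 44.9 CPM per kb. The lengths cover the exons of every annotated transcript (5535 bases for *Il1rn*), so these levels are approximate.

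**Figure D1:**
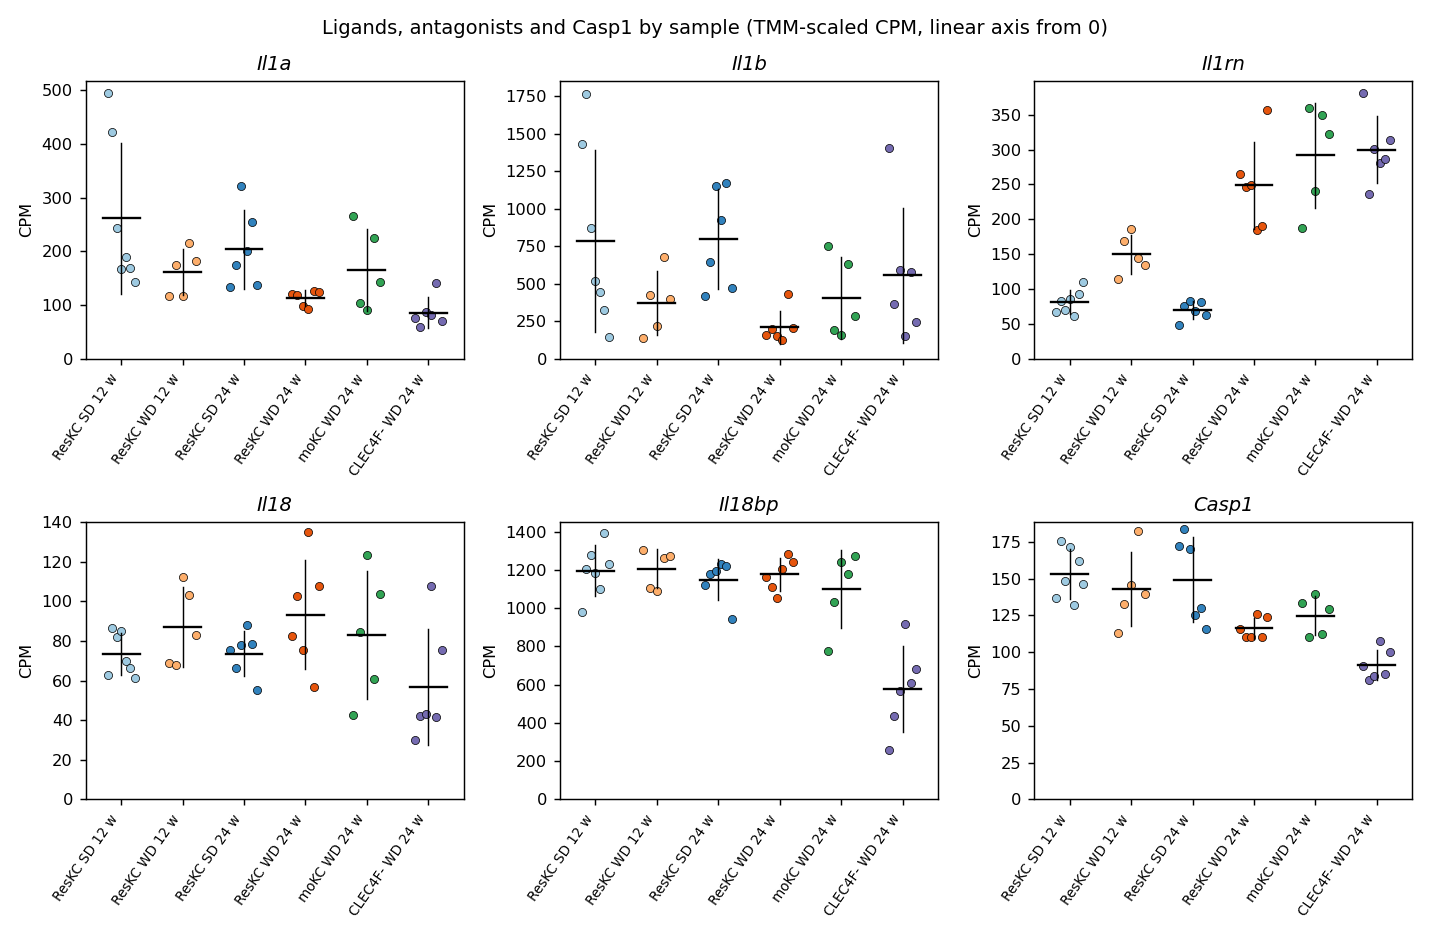
Level of Il1a, Il1b, Il1rn, Il18, Il18bp and Casp1 in each of the 35 samples (points), in TMM-scaled CPM on linear axes from 0, with group means (horizontal lines) and SDs (vertical lines). Il1rn lay at 48.9 to 83.2 CPM in SD ResKCs and at 185 to 357 CPM in WD ResKCs at 24 weeks, while Il18bp lay below every WD ResKC sample in the CLEC4F- macs.

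The comparison of WD with SD ResKCs at 24 weeks asks how the resident cells respond to established MAFLD. The receptor antagonist *Il1rn* was higher on the WD, *Il1b* and *Casp1* were lower, and the other 6 tested members did not pass the test. In this comparison 8.71% of all 13421 tested genes were called at an adjusted p under 0.05 in edgeR's quasi-likelihood test (p-values adjusted by Benjamini-Hochberg) (4.84% higher and 3.87% lower), and 3 of 9 members were called. The median log2 fold change of the members was 0.03, and that of all genes was 0.00.

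*Il1rn* was measured in the 6 SD samples at 48.9, 75.7, 83.2, 68.1, 81.1 and 63.2 CPM, and in the 6 WD samples at 264, 246, 249.8, 185, 190.1 and 357 CPM. The groups did not overlap: every WD sample lay above every SD sample. Over all genes, 2.19% were without overlap and higher on the WD. The means were 70.0 ± 12.9 CPM (SD, n = 6) on the SD and 248.7 ± 62.4 CPM (SD, n = 6) on the WD. The log2 fold change was 1.83 (SE 0.17, 95% interval 1.47 to 2.18), or 3.55-fold, with an adjusted p of 6.35e-08 in edgeR's fit, and *Il1rn* ranked 1 of 13421 genes by p. Among samples of the first naming scheme alone the log2 fold change was 1.86 (adjusted p 0.000136), and with the naming scheme as a covariate it was 1.79 (adjusted p 5.22e-07). No SD sample at 24 weeks is of the second scheme, in which the 3 WD samples had 185 to 357 CPM. Markers of recruited macs were also higher in the same comparison, *Spp1* and *Cx3cr1* of 4 by the test (median log2 fold change 2.71), with a summed level of 4.62 to 15.8 CPM on the SD and 12.0 to 78.4 CPM on the WD, against 711 to 2116 CPM in CLEC4F- macs, and *Chil3* was at 0 counts in every SD sample at 24 weeks. Of the monocyte markers 1 of 5 was higher, and of the dendritic cell markers 1 of 5 tested. The part of such cells in the *Il1rn* level was not tested.

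*Il1b*, the most abundant ligand, was measured at 415, 641, 1150.3, 925, 1172 and 471 CPM in the SD samples and at 157, 199, 152, 123, 428 and 201 CPM in the WD samples. A single WD sample, replicate 5, exceeded the lowest SD sample. The means were 796 ± 334 CPM (SD, n = 6) and 210.0 ± 111 CPM (SD, n = 6), and *Il1b* fell by 1.92 on the log2 scale (SE 0.53, edgeR adjusted p 0.0215). *Il1a*, the other IL-1 ligand, had 134 to 322 CPM on the SD and 92.4 to 125 CPM on the WD without overlap. Over all genes, 1.91% were without overlap and lower on the WD. Its log2 fold change of -0.85 (SE 0.29) did not pass the threshold over all genes (edgeR adjusted p 0.0606), and did without SD replicate 6 (-0.94, adjusted p 0.047).

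Immediate-early and heat-shock genes moved in the same direction as *Il1b* in this comparison. These genes, induced within minutes of stress in many cells, were all tested, and 6 of 10 were lower on the WD, against 3.87% of all genes. Their summed level was 1863 to 10184 CPM in the SD samples and 854 to 3843 CPM in the WD samples. The study's methods state that livers were digested with collagenase before sorting, and the part of this step in these levels was not tested. *Fos* had a log2 fold change of -2.24 (edgeR adjusted p 0.00888) and *Egr1* of -2.22 (edgeR adjusted p 0.0308). With their mean log2 CPM as a covariate in the same fit, the log2 fold change of *Il1b* was -0.45 (adjusted p 0.459) and that of *Il1a* -0.09 (adjusted p 0.88), whereas that of *Il1rn* was 1.76 (adjusted p 1.02e-05). As 6 of the 10 genes were themselves lower on the WD, this fit cannot divide the *Il1b* difference between diet and score. The part of these genes in the *Il1b* result was not tested. The *Il1b* call was also lost with the naming scheme as a covariate (log2 fold change -1.36, adjusted p 0.131) and without WD replicate 4 (-1.81, adjusted p 0.0514), and among samples of the first scheme alone the log2 fold change was -2.23 (adjusted p 0.0115).

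*Casp1*, the protease that cleaves the precursors of IL-1β and IL-18, had 172, 184, 170.0, 125, 129.9 and 116 CPM in the SD samples and 116, 110.2, 111, 126, 110.4 and 124 CPM in the WD samples. The groups overlapped, with SD replicates 4 to 6 at or near the WD values. *Casp1* fell by 0.36 on the log2 scale (SE 0.11, edgeR adjusted p 0.0317), and the call held in 5 of 12 fits that left out 1 sample. Under other settings it held in 5 of 11, with an adjusted p of up to 0.171. It was lost without SD replicates 1, 2 or 3 (-0.32 to -0.30, adjusted p 0.0686 to 0.0998) or WD replicates 1, 2, 3 or 5 (-0.36 to -0.35, adjusted p 0.05 to 0.0637). *Nlrp3*, the sensor protein of the inflammasome, had 29.1 to 67.2 CPM on the SD and 36.8 to 46.1 CPM on the WD, with a log2 fold change of -0.29 (SE 0.26, edgeR adjusted p 0.535).

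The IL-18 arm showed no called difference with diet. *Il18bp* had 942 to 1233 CPM on the SD and 1054 to 1284 CPM on the WD, with a log2 fold change of 0.03 (95% interval -0.29 to 0.36). *Il18* had 55.3 to 87.9 CPM on the SD and 57.0 to 135 CPM on the WD, with a log2 fold change of 0.35 (95% interval -0.15 to 0.84).

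The receptor chains were low in all ResKCs. *Il1rap* had 9.34 to 14.6 CPM on the SD and a mean of 15.9 ± 3.09 CPM (SD, n = 6) on the WD (log2 fold change 0.39, SE 0.19, edgeR adjusted p 0.185). *Il1r1* lay between 0.828 and 1.54 CPM in 5 SD samples and at 5.55 CPM in replicate 6, which also had the highest summed level of 7 endothelial markers in its group (2102 CPM, against 1128 to 1540.1 CPM) and of 6 stellate cell markers (177 CPM, against 58.6 to 114 CPM). On the WD, *Il1r1* was at 4.86, 6.36 and 5.45 CPM in the 3 samples of the first naming scheme and at 0.602, 1.14 and 1.34 CPM in the 3 of the second. The log2 fold change of *Il1r1* was 0.81 (SE 0.53, edgeR adjusted p 0.364). In bulk samples, fewer cells of a type and less RNA per cell cannot be told apart, and the part of these markers' cells in the *Il1r1* level was not tested.

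**Figure D2:**
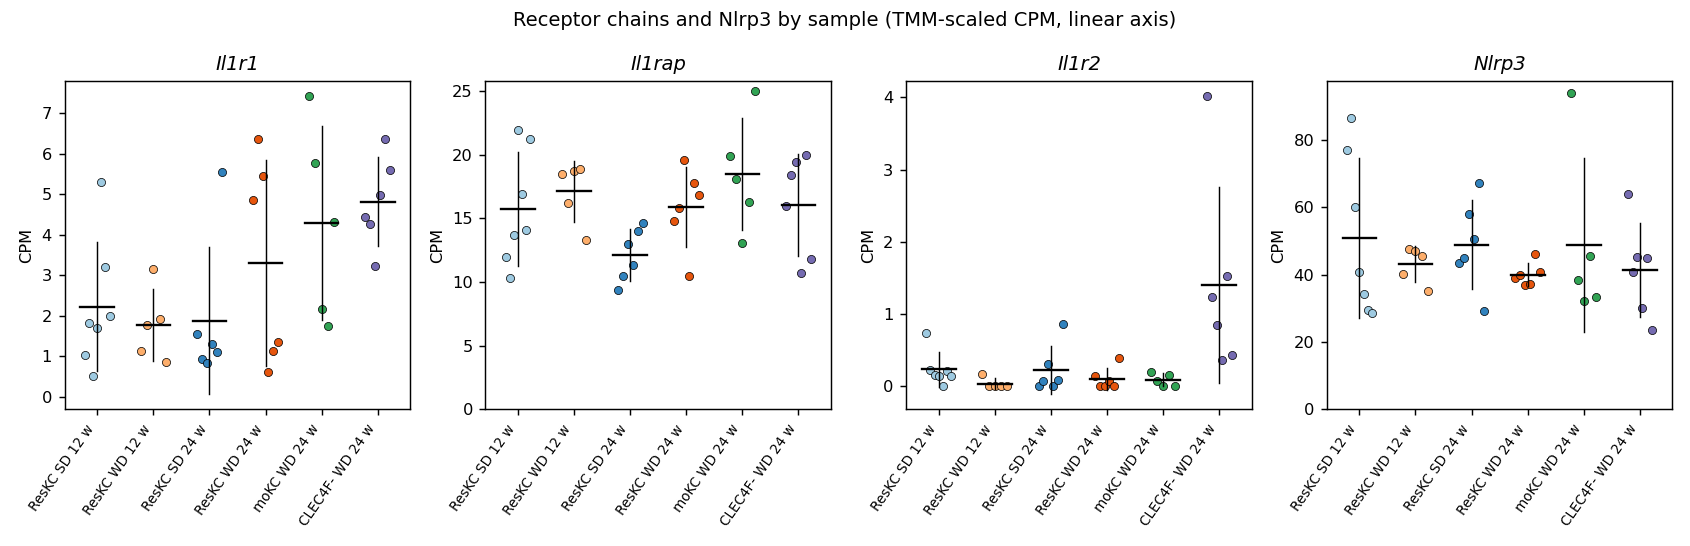
Level of Il1r1, Il1rap, Il1r2 and Nlrp3 in each of the 35 samples (points), in TMM-scaled CPM on linear axes, with group means (horizontal lines) and SDs (vertical lines). Il1r1 spread over 0.602 to 6.36 CPM within WD ResKCs at 24 weeks, and Il1r2 was at most 0.866 CPM outside the CLEC4F- macs.

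At 12 weeks on the diets, *Il1rn* was again higher in WD ResKCs, by a smaller amount, and no other member passed the test. Only 0.0373% of all tested genes were called here (0.0149% higher), so that *Il1rn* was 1 of 5 genes. The 7 SD samples had 61.0 to 109.9 CPM (median 82.8) and the 5 WD samples had 115, 168.5, 186, 145 and 134 CPM, without overlap, as were 0.283% of all genes in this direction. The log2 fold change was 0.88 (SE 0.17, edgeR adjusted p 0.0474), or 1.84-fold. The call lay close to the threshold: it held in 1 of 12 fits that left out 1 sample, the fit without SD replicate 7 (adjusted p 0.00406), with log2 fold changes of 0.79 to 0.97 in all 12, and adjusted p was 0.0021 with DESeq2 and 0.0541 with limma-voom.

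The *Il1b* levels at 12 weeks ranged from 144 to 1768 CPM (median 518) on the SD and from 136 to 681 CPM (median 396) on the WD, and its log2 fold change of -1.08 (SE 0.54) did not pass the test (edgeR adjusted p 0.572). Within the SD group, the 3 samples of the first naming scheme had 874 to 1768 CPM and the 4 of the second had 144 to 518 CPM. *Nlrp3* divided in the same way, at 60.0 to 86.4 CPM and 28.6 to 40.9 CPM. The 5 WD samples all carry the first scheme. In that scheme alone, with 3 SD samples, 4 members were called, *Il1rn* higher (log2 fold change 1.01, adjusted p 0.0154) and *Il1a* (-1.29, adjusted p 0.0292), *Il1b* (-1.90, adjusted p 0.0491) and *Nlrp3* (-0.81, adjusted p 0.0187) lower. Across all other settings at 12 weeks, this one among them, 0 to 229 genes were called over all genes tested. The share of all genes called in this subset is not given here, so the count of members has no background of its own.

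In SD ResKCs, time on the diet gave no called member between 12 and 24 weeks. No gene of 13421 (0.0%) was called in this comparison by edgeR's test, 16 were by DESeq2 and 1208 had an unadjusted p under 0.05, 1 member (*Il1rap*) among them. In WD ResKCs, *Il1rn* was higher at 24 than at 12 weeks by 0.73 on the log2 scale (SE 0.18, edgeR adjusted p 0.0229), in a comparison in which 3.26% of genes were called (1.53% higher), and it was the only member called. This call was lost without WD replicate 5 of 12 weeks (0.70, adjusted p 0.0689) or WD replicate 6 of 24 weeks (0.61, adjusted p 0.061), and in the first scheme alone (0.76, adjusted p 0.0773). The diet effect on *Il1rn* was larger at 24 than at 12 weeks by 0.95 on the log2 scale (SE 0.24, unadjusted p 0.000429), which did not pass the threshold over all genes (edgeR adjusted p 0.0694), where 0.283% of genes were called and no member was. With DESeq2 the adjusted p was 0.0157, and without SD replicate 3 or WD replicate 5 of 24 weeks edgeR gave adjusted p-values of 0.047 and 0.0434. In the first scheme alone the difference was 0.84 (adjusted p 0.177). The diet effects on the other 8 tested members did not differ between the times past an unadjusted p of 0.05.

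**Figure D3:**
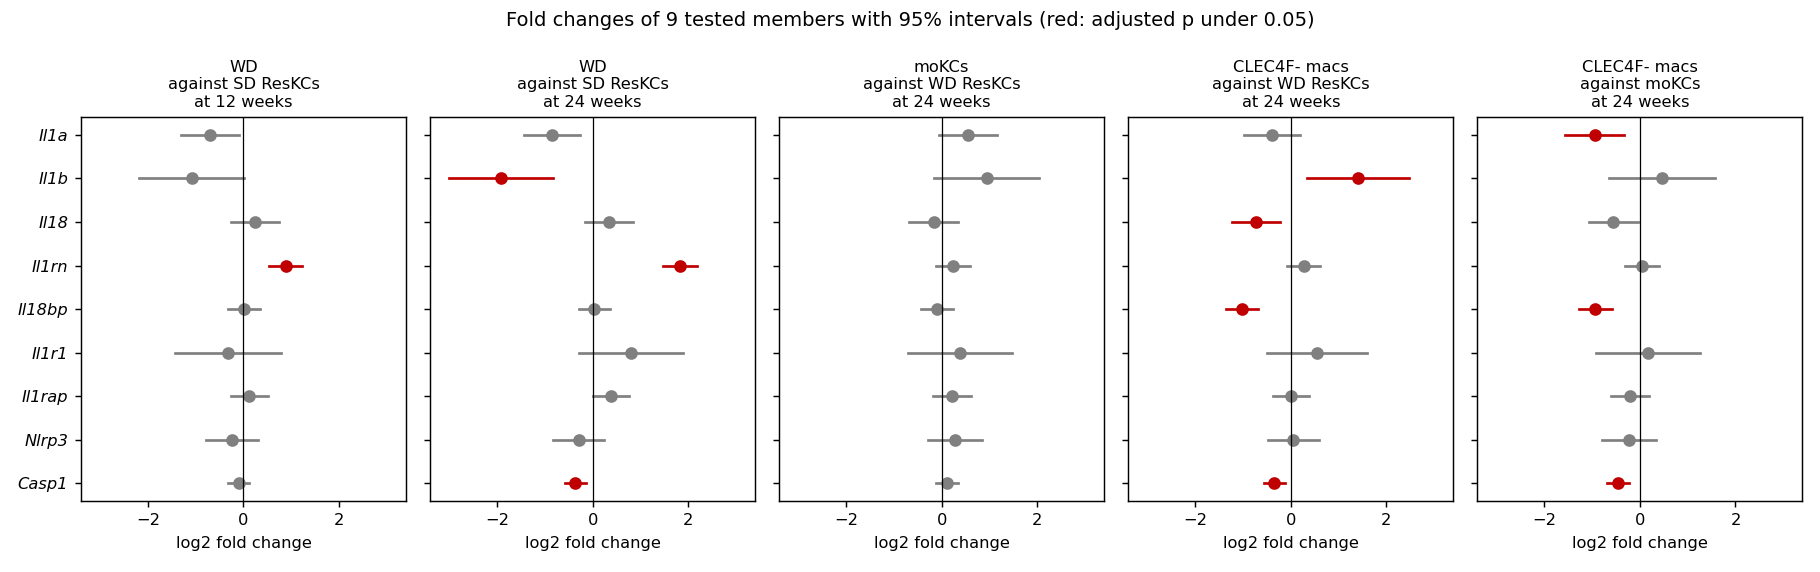
Log2 fold changes of the 9 tested members in 5 comparisons (points) with 95% intervals (lines), from 1 edgeR fit over all 35 samples. Members with an adjusted p under 0.05 are in red, and Il1rn at 24 weeks, at 1.83, is the only member above 1.5.

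On the WD at 24 weeks, moKCs were set against ResKCs to ask whether recruited cells that had taken up the KC phenotype differed from the resident ones. None of the 9 tested members was called, by edgeR, DESeq2 or limma-voom, and none had an unadjusted p under 0.05, in a comparison in which 2.99% of genes were called. In the first naming scheme alone, with 2 moKC and 3 ResKC samples, none was called. Across all other settings, this one among them, 31 to 576 genes were called over all genes tested. With 9 members, having none called lies near the background. *Il1rn* had 187, 360.0, 240.3, 350.0 and 323 CPM in the 5 moKC samples, within or near the 185 to 357 CPM of WD ResKCs (log2 fold change 0.23, 95% interval -0.13 to 0.59). *Il18bp* had 775 to 1270.2 CPM in moKCs (log2 fold change -0.10, 95% interval -0.44 to 0.25). *Il1b* had 754.5, 188, 157, 630.0 and 286 CPM, and its interval of -0.16 to 2.04 did not limit it closely. The 2 moKC samples with the highest *Il1b*, replicates 1 and 4, also had the highest summed levels of the immediate-early and heat-shock genes, 8396 and 4868 CPM against 1437 to 2329 CPM.

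CLEC4F- macs, the recruited population sorted as lacking CLEC4F, differed from WD ResKCs in the IL-18 arm and in *Il1b*, while *Il1rn* was not called. The study describes this population as heterogeneous, divided by the surface protein CLEC2 into macs on the way to moKCs and lipid-associated macs. The KC marker *Cd5l* ranged from 940 to 6604 CPM in these samples, against 9007 to 11283 CPM in WD ResKCs. *Il18bp*, *Il18* and *Casp1* were lower and *Il1b* was higher, which makes 4 of 9 tested members, in a comparison in which 33.0% of all genes were called (16.1% higher and 17.0% lower). With 9 members, this count lies near the background. The comparisons of CLEC4F- macs and of moKCs with ResKCs use the same 6 WD ResKC samples, as does the diet comparison at 24 weeks.

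*Il18bp*, which encodes the soluble inhibitor of IL-18, had 259, 434.5, 565, 916, 607 and 683 CPM in the CLEC4F- macs, against 1054 to 1284 CPM in WD ResKCs. Every CLEC4F- sample lay below every ResKC sample of either diet or time, the lowest of which had 942 CPM, and replicate 4, which had the highest level of ResKC markers, was the highest of the 6. Over all genes, 8.81% were without overlap and lower in CLEC4F- macs than in WD ResKCs. The log2 fold change was -1.03 (SE 0.16, edgeR adjusted p 6.67e-06) against WD ResKCs and -0.93 (SE 0.17, edgeR adjusted p 0.000135) against moKCs. Among first-scheme samples alone they were -1.38 (adjusted p 0.00662) and -1.12 (adjusted p 0.095), the latter with 2 moKC samples. Without replicates 1 and 4, both of which stood apart, they were -1.02 (adjusted p 5.33e-08) and -0.93 (adjusted p 1.48e-06).

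*Il18* itself had 29.8, 42.2, 43.1, 108, 41.6 and 75.3 CPM in CLEC4F- macs and 57.0 to 135 CPM in WD ResKCs. The groups overlapped through replicates 4 and 6 of the CLEC4F- macs. *Il18* was lower by 0.72 on the log2 scale (SE 0.25, edgeR adjusted p 0.0211), and the difference was -0.87 without replicates 1 and 4 (adjusted p 0.00512) and -1.16 in the first scheme alone (adjusted p 0.00311). The call was lost without ResKC replicate 4 (adjusted p 0.0701) or CLEC4F- replicates 1, 2, 3 or 5 (0.0527 to 0.0731). It held in 10 of 12 other settings and was lost with the immediate-early covariate (-0.59, adjusted p 0.0646) and with the compared groups alone (-0.70, adjusted p 0.0802). Against moKCs, the log2 fold change of -0.55 (SE 0.26) was not called (edgeR adjusted p 0.151), and it was -0.84 without CLEC4F- replicate 4 (adjusted p 0.01) and -0.70 without replicates 1 and 4 (adjusted p 0.0493).

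*Casp1* had 90.8, 81.0, 83.6, 107, 85.0 and 100.1 CPM in CLEC4F- macs, below every WD ResKC sample (110.2 to 126 CPM) and every moKC sample (110.2 to 139 CPM), the latter true of 4.2% of all genes. It was lower by 0.35 on the log2 scale against ResKCs (SE 0.11, edgeR adjusted p 0.0123) and by 0.45 against moKCs (SE 0.11, edgeR adjusted p 0.00458). The direction held without TMM factors, where the log2 fold change against ResKCs was -0.23 (adjusted p 0.105), and it was -0.38 in the first scheme alone (adjusted p 0.0153). *Nlrp3* was at 23.6 to 63.9 CPM in CLEC4F- macs, with a log2 fold change against ResKCs of 0.05 (95% interval -0.48 to 0.59).

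*Il1b* had 1406.5, 364, 590.5, 152, 578 and 245 CPM in CLEC4F- macs, the widest range of the 4 groups at 24 weeks. It was higher than in WD ResKCs by 1.41 on the log2 scale (SE 0.53, edgeR adjusted p 0.0374), with overlap. Without replicate 1, which carried the highest lymphoid and dendritic markers, the log2 fold change was 0.89 (adjusted p 0.204), without replicates 1 and 4 it was 1.10 (adjusted p 0.121), and the call held in 4 of 12 fits that left out 1 sample. It was also lost without CLEC4F- replicates 3 or 5 (adjusted p 0.0551 and 0.0523) or any WD ResKC replicate but 5 (adjusted p 0.0595 to 0.0769). In the first scheme alone it was 2.23 (adjusted p 0.0102). Of the 10 immediate-early and heat-shock genes, 3 were higher in CLEC4F- macs, against 16.1% of all genes. With their score as a covariate the log2 fold change of *Il1b* was 0.28 (adjusted p 0.525). Monocyte markers were also higher, 3 of 5 by the test, with a summed level of 369 to 1431 CPM against 92.3 to 171 CPM in WD ResKCs, and their part in the *Il1b* level was not tested.

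*Il1b* was not called against moKCs (log2 fold change 0.46, SE 0.54, edgeR adjusted p 0.658), whereas *Il1a* was. *Il1a* had 58.9 to 141 CPM in CLEC4F- macs and 91.0 to 265 CPM in moKCs. It was lower than in moKCs by 0.95 on the log2 scale (SE 0.30, edgeR adjusted p 0.0268), which was not called without replicates 1 and 4 (-0.87, adjusted p 0.0972). The call was lost too without moKC replicates 1 or 4 (adjusted p 0.138 and 0.0824) or CLEC4F- replicates 1, 2 or 6 (adjusted p 0.0535 to 0.071). Against ResKCs its log2 fold change of -0.40 (SE 0.29) was not called (edgeR adjusted p 0.323). In the comparison with moKCs, 3 of 9 members were lower (*Il1a*, *Il18bp* and *Casp1*) and none higher, where 16.4% of all genes were called, 7.09% higher and 9.34% lower. In the first scheme alone none of the 9 was called, and across all other settings, this one among them, 667 to 2416 genes were called over all genes tested. With a fold change over 2 required as well, the members called were *Il1rn* and *Il1b* in WD against SD ResKCs at 24 weeks (3.35% of all genes), and *Il18bp* and *Il1b* in CLEC4F- macs against WD ResKCs (10.4%). No member passed this rule in the other comparisons, where 5.05% (CLEC4F- macs against moKCs), 1.39% (moKCs against ResKCs), 0.693% (WD ResKCs over time), 0.0596% (difference of the diet effects) and 0.0% (the 2 others) of genes did.

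*Il1rn* in CLEC4F- macs, at 382, 236, 301, 281, 287 and 314 CPM, was not called against WD ResKCs (log2 fold change 0.27, 95% interval -0.07 to 0.61) or moKCs (0.04, 95% interval -0.32 to 0.40). In order of mean level, *Il1rn* stood at 300.1 CPM in CLEC4F- macs, 292 CPM in moKCs and 248.7 CPM in WD ResKCs at 24 weeks, 149.5 CPM in WD ResKCs at 12 weeks, and 81.3 and 70.0 CPM in SD ResKCs at 12 and 24 weeks. The first 3 of these were not called different from each other, nor were the last 2. All 17 samples from 24 weeks of WD (ResKCs, moKCs and CLEC4F- macs) lay at or above 185 CPM, and all 13 SD samples, which are ResKCs only, at or below 109.9 CPM. This split joins diet with population, and the share of all genes that show it was not computed. The WD samples at 12 weeks lay between these limits except for replicate 3, at 186 CPM.

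The decoy receptor *Il1r2* was close to the counting floor in KCs. In 25 of the 29 ResKC and moKC samples it had 3 counts or fewer, and the highest of the 29 had 12 counts (0.866 CPM, SD replicate 6 at 24 weeks, the sample with the highest *Il1r1* in its group). In CLEC4F- macs it had 58, 19, 13, 5, 19 and 6 counts, or 4.02, 1.23, 0.84, 0.365, 1.53 and 0.425 CPM. Every one of the 6 lay above every moKC sample, as did 3.96% of the tested genes, and replicate 1 was the highest. As *Il1r2* did not pass the filter and lay near the counting floor in KCs, no test of it is given, and these counts are a description. *Il1r1* was at 3.23 to 6.37 CPM and *Il1rap* at 16.0 ± 3.97 CPM (SD, n = 6) in CLEC4F- macs, and neither was called against ResKCs or moKCs.

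The ratio of antagonist to ligand within a sample does not depend on the scaling of the libraries. It is a ratio of reads and not of reads per length: the exons of *Il1rn* sum to 5535 bases and those of *Il1b* to 1907, and per kb *Il1rn* was below *Il1b* also in WD ResKCs at 24 weeks (44.9 and 110 CPM per kb). The log2 ratio of *Il1rn* to *Il1b* was -3.41 ± 0.43 (SD, n = 6) in SD ResKCs and 0.34 ± 0.76 (SD, n = 6) in WD ResKCs at 24 weeks. Counts of *Il1rn* per count of *Il1b* ran from 0.0692 to 0.134 on the SD and from 0.444 to 1.77 on the WD, without overlap. Both genes were called in opposite directions between these same samples, so the ratio is not a separate result. The share of other gene pairs without overlap was not computed. The other groups lay between or across these values, at -2.88 ± 1.46 (SD, n = 7) in SD and -1.12 ± 0.87 (SD, n = 5) in WD ResKCs at 12 weeks, -0.23 ± 1.20 (SD, n = 5) in moKCs and -0.54 ± 1.01 (SD, n = 6) in CLEC4F- macs. The log2 ratio of *Il18bp* to *Il18* varied less, with group means of 3.38 (CLEC4F- macs) to 4.03 (SD ResKCs at 12 weeks) and overlap between all groups, so that *Il18bp* exceeded *Il18* by at least 8.49 counts to 1 in every sample. The ratio of *Il1r2* to *Il1r1* counts was at most 0.906 and rested on few counts.

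**Figure D4:**
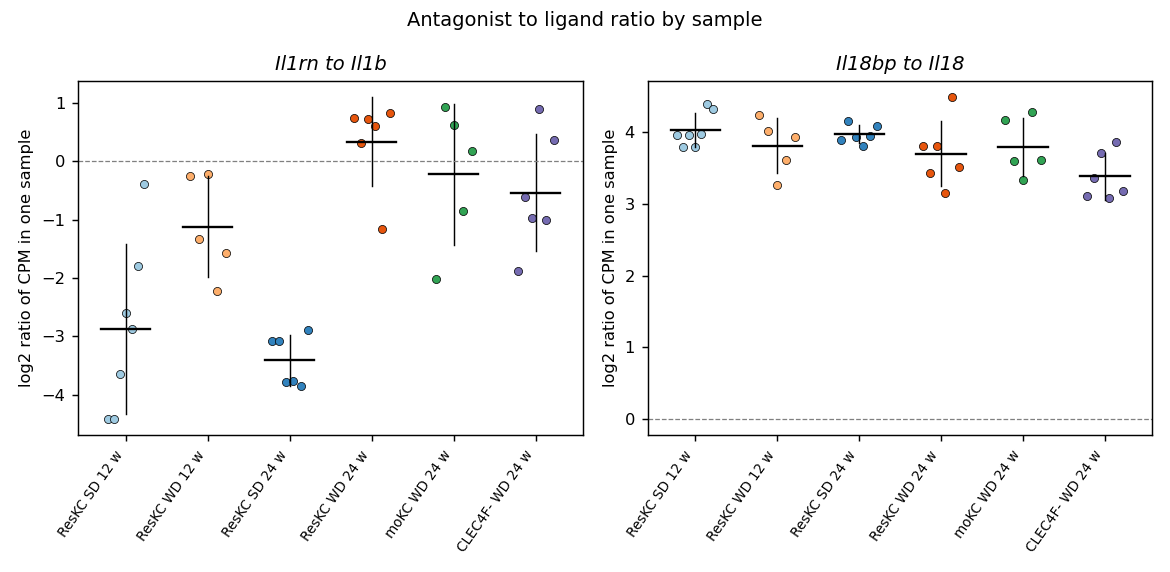
Log2 ratio of Il1rn to Il1b (left) and of Il18bp to Il18 (right) in each sample (points), with group means (horizontal lines) and SDs (vertical lines). The dashed line marks equal CPM, not equal levels per length, and the SD and WD ResKC samples at 24 weeks did not overlap in the left panel.

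The spread of *Il1b* within groups was examined over the 24 ResKC samples, as deviations of log2 CPM from the group means, in 9 relations. *Il1b* varied with *Il1a* (Pearson r = 0.889, permutation p = 1e-05, the smallest that 100000 permutations within groups can give, adjusted p 6e-05, Spearman rho = 0.897, permutation p = 1e-05, adjusted p 9e-05), with the immediate-early and heat-shock score (r = 0.828, permutation p = 2e-05, adjusted p 6e-05, rho = 0.817, permutation p = 6e-05, adjusted p 0.00024) and with *Nlrp3* (r = 0.806, permutation p = 2e-05, adjusted p 6e-05, rho = 0.817, permutation p = 8e-05, adjusted p 0.00024). Without the 2 samples farthest from the median these r were 0.858, 0.770 and 0.721. Within the 17 samples of the first naming scheme they were 0.889, 0.686 and 0.584, and within the 7 of the second 0.821, 0.864 and 0.847, although the relation to *Nlrp3* in the first scheme did not pass (adjusted permutation p = 0.0615). *Il1rn* did not vary with *Il1b* (r = -0.082, permutation p = 0.721, adjusted p 0.811, rho = 0.036, permutation p = 0.877, and r = -0.197 without the 2 farthest samples), with r of 0.534 and -0.388 in the schemes apart. The other 5 relations (*Il18*, *Il18bp*, *Il1r1*, *Il1rap* and *Casp1*) had r between -0.311 and 0.187, with adjusted permutation p of at least 0.349.

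**Figure D5:**
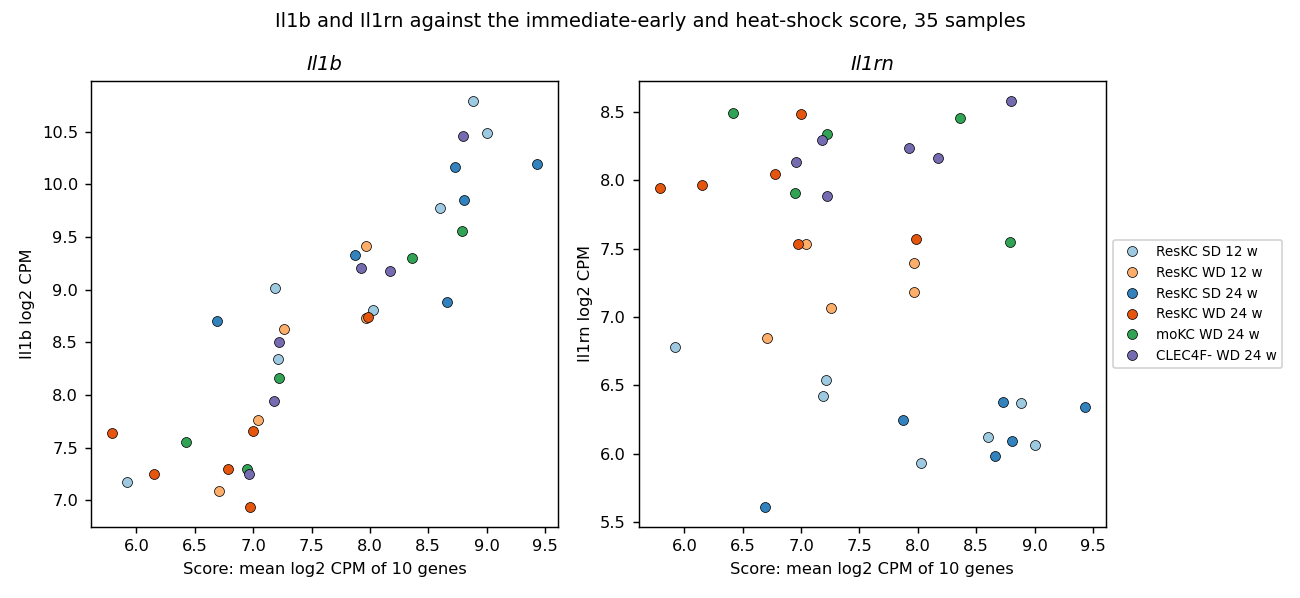
Log2 CPM of Il1b (left) and Il1rn (right) against the immediate-early and heat-shock score, the mean log2 CPM of 10 genes, in 35 samples coloured by group. Samples with a higher score mostly had a higher Il1b level. The Il1rn values of 24-week WD samples (185 CPM or more) all lie above those of SD samples (109.9 CPM or less), which are ResKCs only.

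The genes most like each of 4 members over all 35 samples were listed by Pearson r of log2 CPM, as a description in which samples share group and library effects. For *Il1b* they were *Btg2* (0.954), *Nr4a1* (0.939), *Ier3* (0.935), *Junb* (0.934) and *Zfp36* (0.931), most of which are themselves early-response genes, and *Junb* is part of the score above. For *Il1rn* they were *Vsig8* (0.956), *Cd63* (0.947), *Fam20c* (0.943), the pseudogene *Cd63-ps* (0.941), which can share reads with *Cd63*, and *Dcstamp* (0.933). For *Il18bp* they were *Clec1b* (0.970), *Cd5l* (0.962), *Serpinb6a* (0.944), *B3galnt1* (0.942) and *Clec4f* (0.938). Of these, *Clec4f* and *Cd5l* mark KCs, and the study takes *Clec1b*, which encodes CLEC2, as marking macs on the way to moKCs. For *Il18* the values were lower, with *Gpx3* (0.844), *Igf1* (0.831), *Vcam1* (0.803), *Pcyox1* (0.781) and *Mmp27* (0.777).

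Besides the members, 50 further genes of the pathway were followed, of which 43 passed the filter. The 7 that did not are the 5 genes of the IL-36 and IL-38 branch (*Il1f5*, *Il1f6*, *Il1f8*, *Il1f9* and *Il1f10*) and both chains of the IL-18 receptor, *Il18r1* and *Il18rap*. In WD against SD ResKCs at 24 weeks, 2 rose and 5 fell, where 4.84% of all genes rose and 3.87% fell (median log2 fold change -0.12 over the 43, against 0.00 over all genes). Those that fell were *Nfkbia*, the inhibitor that NF-κB itself induces (-1.08, edgeR adjusted p 0.0262), the pannexin channel *Panx1* (-0.58, 0.0124), *Casp4*, the sensor of cytosolic endotoxin (-0.57, 0.033), *Ninj1*, which ruptures the membrane of dying cells (-0.49, 0.0137), and *Gsdmd*, the pore through which IL-1β leaves (-0.33, 0.0125). The kinase *Irak1*, which acts downstream of the receptor, rose by 0.36 (edgeR adjusted p 0.00622), and *P2rx7*, the ATP-gated channel that triggers NLRP3, rose by 0.37 (edgeR adjusted p 0.019). None of the 43 was called at 12 weeks, where only 0.0373% of all genes were, so that a count of none lies near the background. *Ninj1* alone was called in moKCs against WD ResKCs (-0.76, edgeR adjusted p 0.000554), where 2.99% of all genes were.

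In CLEC4F- macs against WD ResKCs, 8 of the 43 were higher and 7 lower, against 33.0% of all genes in either direction (16.1% higher and 17.0% lower). These counts lie near the background. The largest falls were in *Naip1* (-2.66, edgeR adjusted p 7.91e-09), *Ninj1* (-1.50, 1.16e-10), *Txnip* (-0.81, 7.47e-07) and *Naip6* (-0.60, 0.00335), where the NAIP proteins detect bacterial flagellin and secretion needles for the NLRC4 inflammasome. The largest rises were in *Sigirr*, an inhibitory receptor of the family (1.64, edgeR adjusted p 0.0114), the sensors *Nlrp1b* (1.06, 0.0206) and *Nlrp1a* (0.60, 0.0019), and the kinase *Irak2* (0.56, 8.94e-05). The *Naip* genes and the *Nlrp1* genes are families of close copies whose reads the counting may have split. Against moKCs, 2 were higher (*Pycard*, the adaptor of inflammasomes, by 0.43 with an edgeR adjusted p of 0.0139, and *Irak2* by 0.33, 0.0375) and 5 lower (*Naip1*, *Ninj1*, *Naip6*, *Txnip* and *Naip5*, at -1.94 to -0.51), a count near the 16.4% of all genes called. In WD ResKCs at 24 against 12 weeks, *Irak1* and *P2rx7* were higher and *Casp4* lower, at log2 fold changes of 0.33, 0.39 and -0.73, each with an edgeR adjusted p of at most 0.0323, where 3.26% of all genes were called.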

How the data were processed

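RNA was sequenced from sorted hepatic macs in 35 samples. The authors prepared TruSeq libraries, aligned single reads to mm10 (HISAT2 2.2.0) and assigned them to genes (featureCounts 2.0.0). They deposited raw whole-number counts for each gene symbol and sample. The annotation and strand setting they used are not given in the sources used here. Groups follow the sample titles.

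The filter required more than 1 CPM in 5 samples or more and left 13421 genes. One edgeR (4.0.16, R 4.3.3) model with 6 group means, TMM scaling and quasi-likelihood tests covered all 35 samples. P-values were adjusted over all genes by Benjamini-Hochberg and called under 0.05. Ratios and relations used log2 CPM with a prior count of 2. Permutation tests were two-sided, with 100000 draws within groups (Python 3.11.15). The scripts' tests were run on simulated counts first. The members and all gene lists were chosen with earlier results of these data known. Up to 4 called pathway genes with the highest fold change in each direction were named, and any others after their values were seen. Alternatives were DESeq2 1.42.0, limma-voom (limma 3.58.1), other filters, scaling and covariates, subsets of samples and a replicate block. Leaving out CLEC4F- replicates 1 and 4 together was chosen after seeing the data.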

Additional observations from a re-analysis of the deposited data

Results flagged for a closer look

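In 60 combinations of a group with a member or the immediate-early and heat-shock score, 2 samples lay farther from their group than Dixon's 95% critical value allows, and chance alone is expected to place about 1 in 20 such combinations past it. Both were SD ResKC replicate 6 at 24 weeks. Its *Il1r1* level was the highest of its group, at 2.51 on the log2 CPM scale against -0.03 to 0.76 in the other 5 samples. Its *Il18bp* level was the lowest, at 9.88 on the same scale against 10.13 to 10.27. The same library had the highest summed endothelial and stellate cell markers of its group, and their part in these levels was not tested.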

How the results depend on the processing

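*Il1rn* in WD against SD ResKCs at 24 weeks was called in all 11 other settings (log2 fold change 1.76 to 1.91) and all 12 fits without 1 sample (1.69 to 1.90), and *Il18bp* in CLEC4F- macs against WD ResKCs in all 12 and all 12. Of 810 member fold changes under other settings, 710 kept direction and side of the threshold, 33 lost the threshold, 9 gained it and 58 changed sign, and of 954 without 1 sample 854 kept both and 57 changed sign. Where a value changed, the cause was not tested.

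The number of members called in WD against SD ResKCs at 24 weeks was 1 with the immediate-early and heat-shock covariate, against 3. Smaller changes of these counts under other settings are not listed. In this comparison *Il1b* was called in 9 and *Casp1* in 5 of 11 other settings. At 12 weeks it was 0 with limma-voom, no filter, library size alone, the hepatocyte covariate, the naming scheme covariate, the compared groups alone, the replicate block and a fold change over 2, and 4 in the first naming scheme, against 1. In CLEC4F- macs it was 2 against WD ResKCs with a fold change over 2, and against moKCs it was 1 with the replicate block, 0 in the first scheme and 0 with a fold change over 2. In WD ResKCs over time it was 0 with the replicate block, in the first scheme and with a fold change over 2. For the difference of the diet effects it was 1 with DESeq2. Without 1 sample the number ran from 2 to 4 in the diet comparison at 24 weeks, 0 to 1 at 12 weeks, 2 to 4 in both comparisons of CLEC4F- macs, 0 to 1 in WD ResKCs over time and for the difference of the diet effects, and stayed at 0 in the other comparisons.

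Replicate numbers were not taken to pair the samples, since in no comparison did every same-numbered pair of deviations correlate above 0.1. The correlations ran from -0.023 to 0.13 in the diet comparison at 24 weeks, and between CLEC4F- macs and WD ResKCs from 0.024 to 0.263, with 4 of 6 pairs above 0.1 and 8 of 12 samples correlating best with their own number. With the replicate block, 929 genes were called in the former comparison, against 1169, and 4014 in the latter, against 4433, where *Il18* was at -0.79 (edgeR adjusted p 0.00414) and *Il1b* at 1.15 (edgeR adjusted p 0.0375).

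Fold changes that changed sign follow, all of members not called in the fit reported. With the naming scheme covariate, *Il18bp* was at -0.146 and *Nlrp3* at 0.072 (diet, 24 weeks), *Nlrp3* at -0.020 (CLEC4F- macs against ResKCs), *Il18bp* at 0.143, *Il1b* at -0.259 and *Casp1* at 0.011 (SD over time), *Il18* at -0.089 and *Nlrp3* at 0.253 (WD over time), and *Il1a* at 0.136, *Il1b* at 0.001, *Il18* at -0.286, *Il18bp* at -0.360 and *Nlrp3* at 0.589 (difference of the diet effects). With the immediate-early covariate, *Il18bp* was at -0.113 and *Nlrp3* at 0.329 (diet, 24 weeks), *Il18bp* at -0.028 and *Nlrp3* at 0.024 (diet, 12 weeks), *Il1b* at -0.002 and *Nlrp3* at -0.101 (moKCs against ResKCs), *Nlrp3* at -0.361 (CLEC4F- macs against ResKCs), *Il1b* at -0.138 (SD over time), *Il18* at -0.016 and *Nlrp3* at 0.135 (WD over time), and *Il1a* at 0.327, *Il1b* at 0.004, *Il18* at -0.104, *Il18bp* at -0.085 and *Nlrp3* at 0.304 (difference). In the first scheme alone, *Il18bp* was at -0.049 (diet, 24 weeks), *Il1r1* at 0.631 (diet, 12 weeks), -0.463 and -0.749 (CLEC4F- macs against ResKCs and moKCs), *Il1r1* at 0.738, *Il1b* at -0.781 and *Il18* at -0.079 (SD over time), *Il18* at -0.004 (WD over time), and *Il1a* at 0.427, *Il18bp* at -0.095, *Il1rap* at -0.023 and *Nlrp3* at 0.466 (difference).

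With library size alone, *Il18* was at -0.030 and *Il1b* at -0.021 (SD over time) and *Nlrp3* at 0.007 (difference). With limma-voom, *Nlrp3* was at -0.009 (CLEC4F- macs against ResKCs) and, in SD over time, *Il18* at -0.002 and *Nlrp3* at 0.025. With no filter, *Il18bp* was at -0.004 (diet, 12 weeks), *Il1rap* at -0.005 (CLEC4F- macs against ResKCs) and *Il18* at -0.001 (SD over time). With the compared groups alone, *Il18bp* was at -0.004 (diet, 12 weeks) and *Il18* at -0.004 (SD over time), and with the hepatocyte covariate *Il1rap* was at -0.038 (diet, 12 weeks). With the replicate block, *Il1r1* was at 0.019 (diet, 12 weeks), *Il18* at -0.047 (SD over time), and *Il1a* at 0.005 and *Nlrp3* at 0.147 (difference). Without CLEC4F- replicates 1 and 4, *Nlrp3* was at -0.0333 against ResKCs and *Il1rn* at -0.0248 against moKCs.

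Over the fits without 1 sample, ranges that crossed 0 were those of *Il18bp* (-0.017 to 0.064) in the diet comparison at 24 weeks, *Il1r1* (-0.635 to 0.049) and *Il18bp* (-0.030 to 0.053) at 12 weeks, *Il18bp* (-0.155 to 0.005) and *Nlrp3* (-0.098 to 0.402) in moKCs, and *Nlrp3* (-0.099 to 0.172) and *Il1rap* (-0.079 to 0.108) in CLEC4F- macs against ResKCs. Against moKCs they were those of *Il1r1* (-0.035 to 0.454), *Il1rn* (-0.085 to 0.126), *Il1b* (-0.048 to 0.819) and *Nlrp3* (-0.384 to 0.151). Over time they were those of *Il1r1* (-0.946 to 0.142), *Il1b* (-0.168 to 0.353), *Casp1* (-0.104 to 0.027), *Il18* (-0.055 to 0.073) and *Nlrp3* (-0.170 to 0.120) on the SD and *Il18* (-0.035 to 0.207) on the WD. For the difference of the diet effects they were those of *Il1a* (-0.384 to 0.029), *Il18bp* (-0.030 to 0.064), *Il18* (-0.038 to 0.205) and *Nlrp3* (-0.228 to 0.061).

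With a prior count of 0.5, the log2 ratio of *Il1r2* to *Il1r1* was -4.98 in WD ResKCs at 12 weeks, -3.51 in SD ResKCs at 24 weeks and -5.34 in moKCs. In the first scheme the relation of *Il1b* to *Nlrp3* was 0.584, to *Il1rn* 0.534 and to *Il18bp* 0.188, the last 2 of which changed sign.

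Counts of all genes called ranged over the other settings from 387 to 1504 (diet, 24 weeks, 1169 reported), 0 to 229 (12 weeks, 5), 31 to 576 (moKCs against ResKCs, 401), 1399 to 4899 and 667 to 2416 (CLEC4F- macs against ResKCs, 4433, and moKCs, 2204), 0 to 16 and 12 to 632 (SD, 0, and WD, 438, over time) and 0 to 184 (difference of the diet effects, 38). Depth limits *Il1r2*, most of whose values lie at or under 3 counts.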

Other observations

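*Il1r1* divided by naming scheme in opposite directions in different groups. In WD ResKCs at 24 weeks the 3 samples of the first scheme (4.86 to 6.36 CPM) lay above the 3 of the second (0.602 to 1.34 CPM), and in moKCs the 2 of the first (5.77 and 7.42 CPM) lay above the 3 of the second (1.75 to 4.32 CPM). In CLEC4F- macs the 3 of the first scheme (3.23 to 4.44 CPM) lay below the 3 of the second (4.97 to 6.37 CPM).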
